A study of Mus musculus with 6 samples.

Results

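The genes described here are the ligands, receptors, secreted modulators and chosen read-out genes of Wnt signalling, measured by RNA sequencing in the atria of lean and diet-fed mice. They were chosen by name: every gene whose symbol begins with Wnt, Fzd or Sfrp and a digit, together with Lrp5, Lrp6, Axin2, Lef1, Tcf7, Rspo1, Rspo2, Rspo3, Wif1, Dkk1 and Dkk2. This gave 44 of the 43432 genes in the table: 19 Wnt ligands, 10 Frizzled receptors, 2 co-receptors, 4 secreted Frizzled-related proteins, 3 other secreted inhibitors, 3 R-spondins and 3 target or transcription factor genes. The HFD group was 3 wild-type C57/Bl6J mice given a high fat diet for 10 weeks, beginning when they were 6 weeks old, and the control group was 3 mice of the same strain and age given control chow over the same period. Right and left atria were taken as whole tissue, so every cell type of the atrial wall and its surrounding fat can contribute. The diet of each mouse was read from the sample titles, with which the column names of the table match, and every direction below follows them, but the treatment entries name the other diet in each of the 6 cases. The labels do not give the sex of the mice or how they were housed, and the p-values measure the spread between these 6 samples.

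Wnt proteins are secreted, lipid-carrying signals that bind a Frizzled receptor on the receiving cell. When the co-receptor Lrp5 or Lrp6 joins the complex, the cytoplasmic destruction complex that contains Axin is held back, beta-catenin accumulates, and TCF/LEF factors activate target genes such as Axin2. Secreted Frizzled-related proteins (Sfrp) and Wif1 bind the ligands outside the cell, Dickkopf proteins (Dkk) occupy the co-receptors, and R-spondins keep Frizzled receptors at the surface. In the heart the pathway is known for its part in chamber and valve formation and in fibrosis.

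The 6 libraries held between 15874251 and 28971508 reads assigned to genes, the deepest being control mouse 2. All values below are normalized counts, which are reads divided by a size factor of the library, and 3 reads, the limit that a count of 0 allows, corresponded to between 2.05 and 3.41 normalized counts. Counting error only is covered by this limit. The atrial myocyte markers (Nppa, Myl7, Myl4, Sln, Nr2f2 and Tbx5) were present in every library, with a summed level of 290398, 287078 and 518132 in HFD mice 1, 2 and 3 and of 442423 to 486138 in the control mice, so that HFD mice 1 and 2 stood below the other 4. In the limma fit described below, all 6 atrial markers had a negative log2 fold change (HFD minus control), with a median of -0.36. Of these, 2 had an unadjusted p under 0.05 and 0 passed adjustment. The ventricular markers summed to between 6942 and 17517, with control mouse 2 highest. Of the 6 ventricular markers, 5 had a negative and 1 a positive value, with a median of -0.40. In that list 1 marker was lower at an unadjusted p under 0.05 and 0 passed adjustment. Mitochondrial genes took 19.5% to 24.3% of the reads in HFD and 23.8% to 30.7% in control libraries. In bulk tissue, fewer cells of a type and less RNA per cell cannot be told apart.

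Of the 44 genes, 29 had a mean of at least 10 normalized counts over the 6 mice and were tested, using limma and a Benjamini-Hochberg adjustment that covered the 15275 genes with such a mean. At an adjusted p under 0.05, Wnt9b was higher and Sfrp5 lower in HFD atria. Over all genes tested, 0.484% were called higher and 0.262% lower. At an unadjusted p under 0.05, 4 members were higher (13.8% of those tested, against 6.66% of all genes) and 3 were lower (10.3%, against 5.55% of all genes). In sign, 21 of the 29 were higher and 8 lower, and their median log2 fold change was 0.21, against 0.0049 over all genes tested. All HFD mice lay above all control mice in 5 members (17.2%, against 8.86% of all genes) and below them in 1 (3.45%, against 9.17%).

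**Figure D1:**
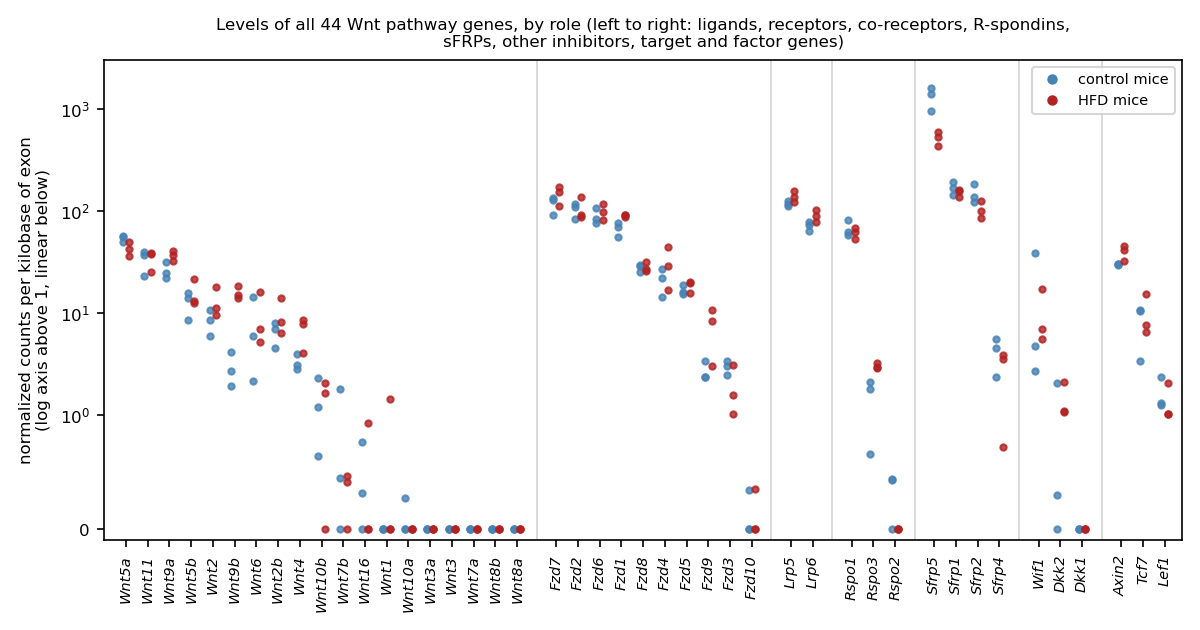
Normalized counts per kilobase of exon for all 44 genes, on an axis that is logarithmic above 1 and linear below, with 1 point per mouse and the genes ordered by level within each role. Sfrp5 had the highest level of all, and its 3 HFD mice lay below its 3 control mice, while 6 genes sat at 0 in every mouse.

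Sfrp5 was the most abundant of the 44 genes per kilobase of exon, and its level in HFD atria was 0.40 times that in control atria. Sfrp5 encodes a secreted decoy that carries a Frizzled-like cysteine-rich domain and is also known as an adipocyte-secreted protein that binds Wnt5a. It lies on chromosome 19 of GRCm38 at chr19:42197971-42202252 on the minus strand. The HFD mice had 1016, 815 and 1131 normalized counts, and the control mice had 2650, 1818 and 3018. Every HFD mouse was below every control mouse, and the lowest control mouse was still well above the highest HFD mouse. The means were 987 ± 160 in HFD and 2495 ± 615 in control atria (SD, n = 3 each). This is a log2 fold change of -1.32 (SE 0.19, 95% interval -1.74 to -0.90), with an adjusted p of 0.0171 from limma. An exact two-sided permutation test of the same values gave p = 0.1, the smallest that 3 mice against 3 allow. The call was lost without HFD mouse 2 (adjusted p 0.0588), control mouse 1 (0.0769) or control mouse 3 (0.0752), and in a fit with no variance trend (0.177), while the log2 fold change stayed between -1.53 and -1.17 when any single mouse was left out.

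Wnt9b rose from a level near the lower end of the tested range, and HFD atria had 5.38 times the mean of control atria. Wnt9b encodes a ligand that acts mainly through beta-catenin and is known from kidney development and from the endocardium of the forming heart valves. It lies at chr11:103727364-103749821 on the minus strand. The HFD mice had 83.4, 64.2 and 68.1 normalized counts, and the control mice had 19.0, 12.3 and 8.74. All 3 HFD mice lay above all 3 control mice, with no value in between. The means were 71.9 ± 10.1 and 13.4 ± 5.22 (SD, n = 3 each). These values rest on 83, 63 and 60 reads in the HFD libraries and on 17, 18 and 8 in the control libraries. The log2 fold change was 2.40 (SE 0.38, 95% interval 1.56 to 3.23), with an adjusted p of 0.0234 from limma, and the exact permutation test gave p = 0.1. The call was lost without HFD mouse 1 (adjusted p 0.0862), HFD mouse 2 (0.0923), control mouse 2 (0.0834) or control mouse 3 (0.0752), and with no variance trend (0.105). The log2 fold change then ranged from 2.15 to 2.67 over the fits that left out 1 mouse. Neither Wnt9b nor Sfrp5 overlaps another annotated gene.

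Markers of other cell types are given beside these genes as sums and counts. The 5 brown adipocyte markers (Ucp1, Cidea, Dio2, Elovl3 and Prdm16) summed to between 723 and 1385 in HFD mice and to between 278 and 420 in control mice. Ucp1 and Cidea were higher at an adjusted p under 0.05, while Elovl3 was listed at 0 in control mice 2 and 3. The 4 tested brown adipocyte markers all had a positive log2 fold change, with a median of 1.26. Of 8 white adipocyte markers, 7 had a positive and 1 a negative log2 fold change, with a median of 0.51. In this list 0 passed the adjusted test by limma or edgeR and 1 (Fabp4) by DESeq2, and 2 were higher at an unadjusted p under 0.05 by limma. Their sum was 78053, 73722 and 41736 in HFD mice 1, 2 and 3 and 46550 to 50745 in control mice. Most of that sum was Lpl, which heart muscle also expresses. Of the 8 macrophage markers, 7 had a positive log2 fold change, with a median of 0.36, and 5 had an unadjusted p under 0.05. The integrin gene Itgam passed adjustment, with a log2 fold change of 1.18 and a limma adjusted p of 0.0106. The summed macrophage markers were 11177 to 13131 in HFD and 8198 to 10765 in control mice. Of the 8 endothelial markers, 7 had a positive value, with a median of 0.15, 0 passed adjustment by limma or edgeR and 1 (Pecam1) by DESeq2, and 2, Pecam1 and Vwf, had an unadjusted p under 0.05 by limma, while Cdh5 was at 0.04 and Egfl7 at -0.19. Their sums, of which Pecam1 and Vwf were large parts, were 21344 to 23085 in HFD and 18454 to 18905 in control mice. Of the 8 smooth muscle and pericyte markers, 5 had a positive and 3 a negative value, with a median of 0.22, 0 passed adjustment by limma or edgeR and 1 (Cnn1) by DESeq2, and Cnn1 alone had an unadjusted p under 0.05 by limma. Their sums were 12935 to 13072 against 10668 to 12443, and the pericyte genes Kcnj8, Pdgfrb and Cspg4 were at -0.17, -0.12 and -0.0094. None of the macrophage, endothelial or smooth muscle and pericyte markers was at 0 in any mouse. The sums of the 8 epicardial mesothelial (1529 to 2363 against 1504 to 2321) and 8 fibroblast markers (41812 to 43499 against 41265 to 47009) overlapped between the groups. So did those of the 4 endocardial (3404 to 4390 against 3423 to 4103), 8 Schwann and neural (960 to 1755 against 1071 to 1501) and 8 lymphocyte markers (29.6 to 134 against 37.6 to 68.3). Of the epicardial markers, 1 was higher at an unadjusted p under 0.05 by limma. Among the fibroblast markers, 3 had a positive and 5 a negative value. Lum alone had an unadjusted p under 0.05, at -0.33 (limma adjusted p 0.291), with all HFD mice below all control mice. Among the Schwann and neural markers, 3 had a positive and 5 a negative value, with a median of -0.29. At an unadjusted p under 0.05 by limma, 1 was higher and 2 were lower. Of the endocardial markers, Nfatc1 had 737, 833 and 817 normalized counts in HFD and 541, 519 and 549.8 in control mice, a log2 fold change of 0.57 with a limma adjusted p of 0.0596, while Npr3 was at 0.02, Cytl1 at -0.16, and Hapln1 was listed at 0 in control mouse 3. The part of these cell types in the Sfrp5 and Wnt9b differences was not tested.

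The sequences before the transcription starts of the 2 called genes and of Axin2, the common read-out of beta-catenin signalling, show the kind of promoter these genes have. Each run is the 250 bases before the RefSeq start in GRCm38.p6, read 5′ to 3′ on the gene's strand, with CpG dinucleotides in capitals. The window of Sfrp5 is chr19:42202253-42202502 on the minus strand, that of Wnt9b is chr11:103749822-103750071 on the minus strand, and that of Axin2 is chr11:108920099-108920348 on the plus strand.
Sfrp5: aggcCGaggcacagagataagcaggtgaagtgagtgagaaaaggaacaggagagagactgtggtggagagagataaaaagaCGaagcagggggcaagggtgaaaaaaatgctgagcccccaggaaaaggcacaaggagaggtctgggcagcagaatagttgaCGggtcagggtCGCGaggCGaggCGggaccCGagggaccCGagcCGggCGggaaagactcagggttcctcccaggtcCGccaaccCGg
Wnt9b: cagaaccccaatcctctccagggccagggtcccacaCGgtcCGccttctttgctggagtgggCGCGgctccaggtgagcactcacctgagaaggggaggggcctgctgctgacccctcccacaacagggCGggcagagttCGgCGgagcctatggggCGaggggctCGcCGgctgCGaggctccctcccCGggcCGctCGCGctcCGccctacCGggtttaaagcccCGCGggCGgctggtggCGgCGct
Axin2: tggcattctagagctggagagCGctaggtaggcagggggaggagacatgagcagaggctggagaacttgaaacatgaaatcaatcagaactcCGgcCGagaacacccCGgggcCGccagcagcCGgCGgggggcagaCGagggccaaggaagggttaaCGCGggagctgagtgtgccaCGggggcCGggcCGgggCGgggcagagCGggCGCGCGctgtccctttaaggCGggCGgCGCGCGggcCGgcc
The Sfrp5 window holds 13 CpG dinucleotides and a GC content of 59.6%, the Wnt9b window 22 and 72%, and the Axin2 window 24 and 69.2%. After a filter that left out Fzd8 and Wnt8a, 37 RefSeq windows were kept, for 30 of the 44 genes. The kept windows had a median of 21 CpG dinucleotides and 66.8% GC, against 6 and 52.4% over all 32851 windows of this length. The full set was not filtered in this way, so these medians and the shares below do not compare like sets. The letters CTTTGAT or CTTTGTT, a core bound by TCF/LEF factors, were searched on both strands and stood in 4 of the 37 windows (10.8%), those of Dkk1, Fzd7, Wnt11 and Wnt5b, against 8.06% of all windows. For Wnt5b they stood only before a start 94961 bases from the annotated gene start, and not in the window at the annotated start. Neither spelling is in the 3 windows printed above, which says only that these letters are not in those bases.

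Among the 19 Wnt ligands, 9 were tested, and 8 of these had a positive and 1 a negative log2 fold change, with a median of 0.49. Wnt9b alone passed the adjusted test. Wnt5a, the ligand with the highest level per kilobase of exon (48.4 normalized counts per kilobase) and known mainly for signalling without beta-catenin, had a value of the other sign. Its normalized counts were 330, 393 and 281 in HFD and 431, 391 and 447 in control mice, so that HFD mouse 2 and control mouse 2 met and the groups overlapped. Its log2 fold change was -0.35 (SE 0.15, 95% interval -0.69 to -0.0067), which did not pass adjustment (limma adjusted p 0.396). An antisense gene, Gm2670, overlaps its exons with a mean of 4.25 normalized counts, and whether strand was used in counting is not stated. The share of Wnt5a in the summed per-kilobase level of the ligands was 22.6%, 23.3% and 23.0% in HFD and 31.1%, 34.1% and 38.4% in control mice, and that of Wnt9b was 9.89%, 6.60% and 9.66% against 2.38%, 1.86% and 1.3%. Both shares were separated between the groups, in opposite directions, and were given no test. They are parts of 1 sum and so are not independent, since a higher level of other ligands lowers the share of Wnt5a.

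Wnt9a, the close relative of Wnt9b, had 123, 136 and 107 normalized counts in HFD and 105, 73.2 and 83.1 in control mice. All HFD mice lay above all control mice, but HFD mouse 3 and control mouse 1 were nearly level. Its log2 fold change of 0.49 (SE 0.22) had a limma adjusted p of 0.401. Wnt4, a ligand known from kidney and gonad development, had 17.1, 35.7 and 32.9 normalized counts in HFD and 16.8, 13.0 and 12.0 in control mice. Here HFD mouse 1 sat just above control mouse 1, and the log2 fold change of 0.93 had an adjusted p of 0.455 by limma. The other tested ligands, Wnt2, Wnt2b, Wnt5b, Wnt6 and Wnt11, overlapped between the groups, with log2 fold changes of 0.59, 0.50, 0.30, 0.49 and 0.05. Without HFD mouse 2 the values of Wnt2, Wnt2b and Wnt5b were 0.32, 0.18 and 0.062, and Wnt5b was at 0.047 without control mouse 2. Wnt11, linked to heart development, was second to Wnt5a in level per kilobase (33.7), followed by Wnt9a (31.4).

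Of the ligands, 10 had a mean under 10 and were not tested. No read was assigned to Wnt3, Wnt3a, Wnt7a, Wnt8a or Wnt8b in any library. Wnt10a had 1 read over the 6 libraries, Wnt1 had 3, Wnt16 had 9, Wnt7b had 14 and Wnt10b had 27. The ligand genes include 4 neighbouring pairs, and in each pair the reads lay mostly in a single gene. Wnt9b and Wnt3 face away from each other on chromosome 11 with 24.33 kb between them and had 249 and 0 reads in all. Wnt9a and Wnt3a, 16.18 kb apart on the same chromosome, had 626 and 0. Wnt6 and Wnt10a on chromosome 1, 6.193 kb apart, had 107 and 1, and Wnt10b and Wnt1 on chromosome 15, 11.71 kb apart, had 27 and 3.

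**Figure D2:**
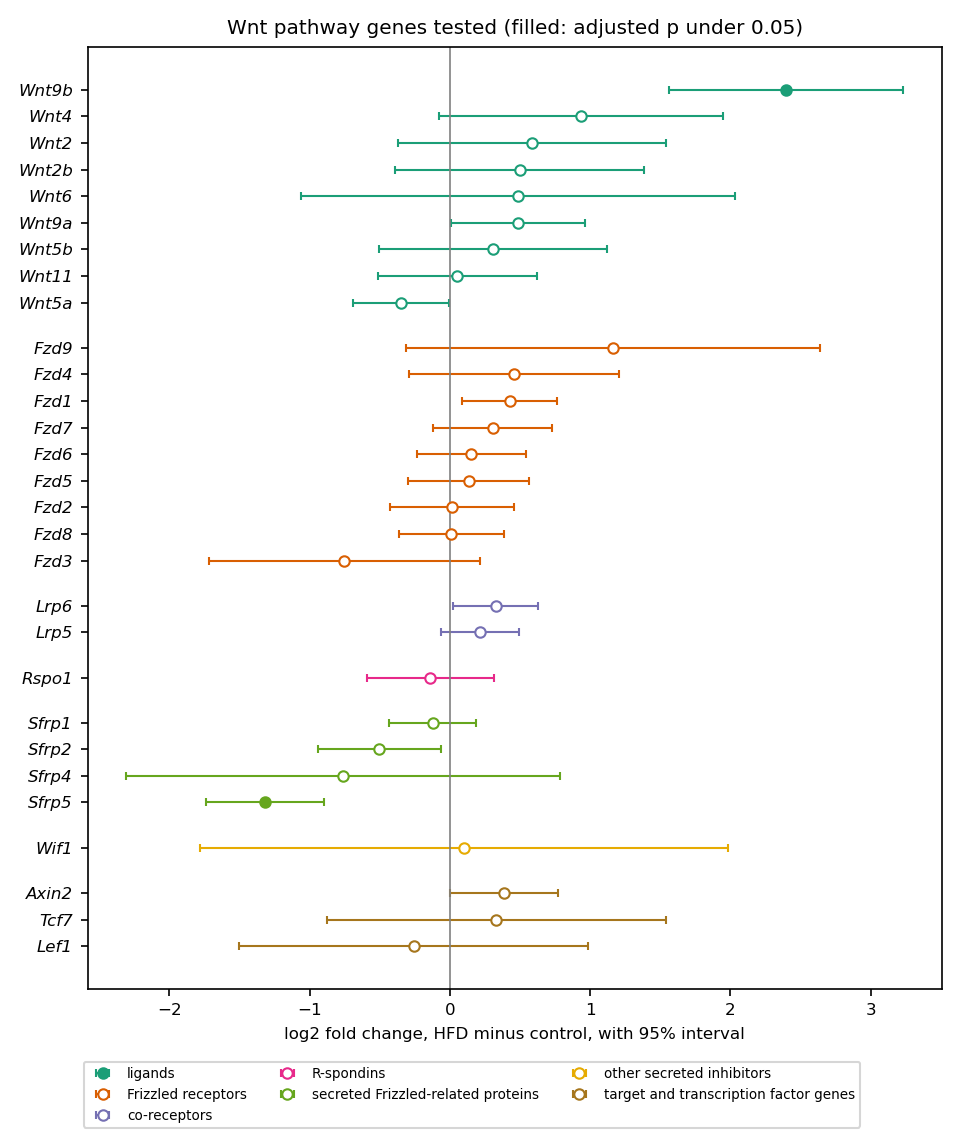
Log2 fold change of the 29 tested genes, HFD minus control, with 95% intervals from limma, coloured by role and filled where the adjusted p was under 0.05. Wnt9b and Sfrp5 lie at the right and left ends, and the intervals of most other genes cross 0.

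Of the 10 Frizzled receptors, 9 were tested, and 0 passed the adjusted test with limma, edgeR or DESeq2, 1 (Fzd1) having an unadjusted p under 0.05 by limma. In sign, 8 were higher and 1 lower, and their median log2 fold change was 0.15. Fzd1 had 385, 381 and 363 normalized counts in HFD and 319, 234 and 293 in control mice, so that the HFD mice were tightly grouped and all above the control mice. Its log2 fold change was 0.43 (SE 0.15, 95% interval 0.09 to 0.77), with a limma p of 0.0182 before and 0.285 after adjustment. It was the only Frizzled gene without overlap between the groups.

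Fzd7 had the highest level of the family (131 normalized counts per kilobase). Its 689, 777 and 510 normalized counts in HFD and 606, 415 and 576 in control mice overlapped, with a log2 fold change of 0.30 (SE 0.19, adjusted p 0.575 by limma). Fzd2, Fzd6 and Fzd1 followed in level, at 104, 93.9 and 78.5 per kilobase, and the ranges of these genes over the 6 mice overlapped. Fzd2, Fzd8, Fzd5 and Fzd6 had log2 fold changes between 0.01 and 0.15. Fzd4, known for its part in retinal vessel growth, had a log2 fold change of 0.46 with 95% limits of -0.29 and 1.2, and was at 0.12 without HFD mouse 2. The negative value was that of Fzd3, a receptor of planar polarity and axon guidance, at -0.75 (95% interval -1.72 to 0.21). Fzd9 had 7.03, 24.5 and 19.3 normalized counts in HFD and 7.84, 5.48 and 5.47 in control mice, and was the 1 tested gene with a group mean under 10. Its log2 fold change was 1.16 (95% interval -0.31 to 2.64), with a limma adjusted p of 0.535. Leaving out 1 mouse gave 0.83 to 1.66. With both edgeR scalings its p was 0.040 before adjustment, and it did not pass after adjustment. Fzd10 had 2 reads over all 6 libraries.

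Both co-receptors were expressed in every mouse and overlapped between the groups. Lrp6 had 1234, 1396 and 1055 normalized counts in HFD and 868, 1059 and 1000.1 in control mice, with HFD mouse 3 just below control mouse 2. Its log2 fold change was 0.33 (SE 0.14, 95% interval 0.02 to 0.63), with a limma adjusted p of 0.368. Lrp5, the higher of the pair per kilobase (129 against 80.6 for Lrp6), had 1183, 1536 and 1329 normalized counts in HFD and 1150, 1092 and 1230 in control mice. Its log2 fold change was 0.21 (SE 0.13) and its adjusted p 0.545 by limma.

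The 4 secreted Frizzled-related proteins chosen by name had log2 fold changes below 0, with a median of -0.63. Sfrp5 was the 1 that passed the adjusted test. Frzb belongs to the same family, but its symbol does not match the name rule, and it had a positive value. It had 149, 203 and 198 normalized counts in HFD and 246, 99.9 and 122 in control mice, which overlapped. The log2 fold change of Frzb was 0.33 (95% interval -0.35 to 1.00), with a limma adjusted p of 0.726. Sfrp2, known for its part in matrix deposition after heart injury, had 183, 217 and 268 normalized counts in HFD and 392, 297 and 262 in control mice. HFD mouse 3 was above control mouse 3, so the groups overlapped. Its log2 fold change was -0.50 (SE 0.20, 95% interval -0.94 to -0.07), with a limma adjusted p of 0.336. Sfrp1 had a log2 fold change of -0.12 (95% interval -0.43 to 0.19), and Sfrp4, with 17.5 normalized counts or fewer in the mean of each group, had -0.76 (95% interval -2.31 to 0.78), which became -0.083 without HFD mouse 1.

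The summed level of the 4 Sfrp genes, per kilobase of exon, was 777, 695 and 861 in HFD and 1773, 1241 and 1880 in control mice. Sfrp5 made up 68.8%, 61.7% and 69.1% of that sum in HFD and 78.7%, 77.1% and 84.5% in control mice. Sfrp5 thus remained the most abundant Sfrp gene in all 6 mice, at a lower share in each HFD mouse. The ratio of Wnt5a to Sfrp5, per kilobase, was 0.08, 0.12 and 0.06 in HFD and 0.04, 0.05 and 0.04 in control mice. It was given no test and is not independent of the Sfrp5 difference, since Sfrp5 is its denominator. Wnt5a itself had a negative log2 fold change of -0.35.

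Wif1, which binds Wnt ligands outside the cell, had the highest level of the 3 inhibitors Wif1, Dkk1 and Dkk2. It had 17.1, 41.8 and 13.6 normalized counts in HFD and 95.2, 11.6 and 6.56 in control mice. Control mouse 1 was far above the rest, and the log2 fold change was 0.10 with 95% limits of -1.78 and 1.98 and changed sign with count-based fits. Dkk2 had 23 reads in all and Dkk1 had none. Rspo1 made up 94.7% to 98.9% of the summed R-spondin level per kilobase. Its 131, 120.3 and 102 normalized counts in HFD overlapped the 158, 112 and 121 in control mice, with a log2 fold change of -0.14 (SE 0.21, adjusted p 0.842 by limma). Rspo3, an endothelial and mesenchymal R-spondin, was under the limit for the test, with 10.0, 9.18 and 9.09 normalized counts in HFD and 5.60, 2.05 and 6.56 in control mice. In a fit without that limit its log2 fold change was 0.97 (SE 0.67) and the limma adjusted p 0.746. Rspo2 had 4 reads.

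Axin2, which encodes a scaffold of the destruction complex and is itself induced by beta-catenin, had 227, 251 and 178 normalized counts in HFD and 166, 168 and 164 in control mice. The control mice were within a few counts of each other and below every HFD mouse, of which mouse 3 was nearest to them. The log2 fold change was 0.38 (SE 0.17, 95% interval -0.0022 to 0.77), with a limma p of 0.0511 before and 0.413 after adjustment. The transcription factor genes Tcf7 and Lef1 were low in all mice and overlapped, with log2 fold changes of 0.33 (95% interval -0.88 to 1.54) and -0.26 (95% interval -1.5 to 0.99).

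**Figure D3:**
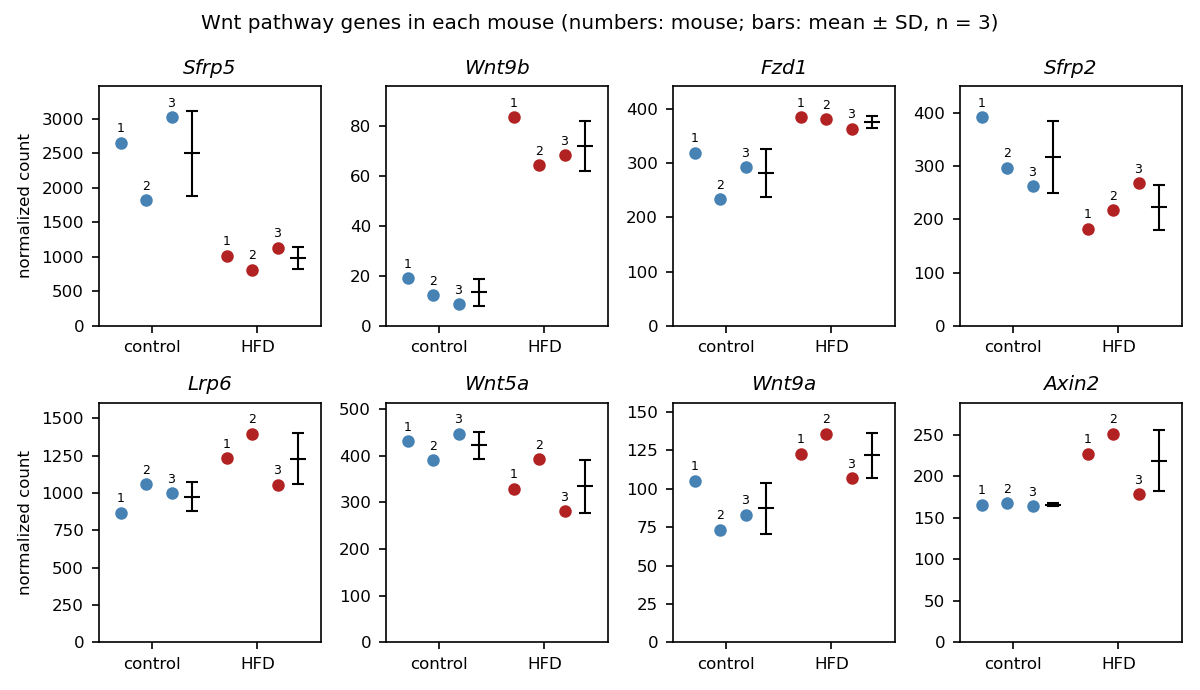
Normalized counts of 8 genes in each mouse on linear axes that start at 0, with numbered points for mice and the mean ± SD of 3 mice beside each group. Sfrp5 and Wnt9b are widely separated between the diets, Fzd1, Wnt9a and Axin2 are separated by less, and Sfrp2, Lrp6 and Wnt5a overlap.

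The remainder of the pathway was read from 72 further genes in 7 groups, of which 65 were tested. With limma 0 passed the adjusted p of 0.05, while at an unadjusted p under 0.05 there were 3 higher (4.62%, against 6.66% of all genes) and 5 lower (7.69%, against 5.55%). With edgeR 0 passed as well, and with DESeq2 2 did, Tle2 and Cd44. Their median log2 fold change was 0.01, all HFD mice lay above all control mice in 9 (13.8%, against 8.86% of all genes) and below them in 6 (9.23%, against 9.17%), and 36 were higher and 29 lower in sign. The medians of the 7 groups ran from -0.11 for the genes of Wnt secretion and removal to 0.07 for the target genes outside the 44.

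Dkk3, a divergent Dickkopf whose action on Wnt signalling is less settled, was by far the most abundant of the inhibitors in reads, with 16770, 16442 and 14156 normalized counts in HFD and 19482, 19281 and 21129 in control mice. All HFD mice were below all control mice, with a log2 fold change of -0.34 (SE 0.12) and a limma adjusted p of 0.293. The glypican Gpc3 had -0.55, and the planar polarity receptors Ptk7 and Celsr1 had -0.39 and -0.55, each with an unadjusted p under 0.05. In the nucleus, the Groucho-type co-repressors Tle1 and Tle2 had values of opposite sign, 0.32 and -0.73. Tle2 had 264, 314 and 187 normalized counts in HFD and 422, 396 and 423 in control mice, with a limma adjusted p of 0.116.

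Among the 12 tested target genes outside the 44, Cd44, a hyaluronan receptor, and Jag1, a Notch ligand, had log2 fold changes of 0.56 and 0.42 at an unadjusted p under 0.05. Cd44 had 554, 597 and 764 normalized counts in HFD and 409, 416 and 461 in control mice, with a limma adjusted p of 0.124. Cd44 is also expressed by leukocytes, and the summed macrophage markers given above were higher in the HFD mice, but their part in the Cd44 values was not tested. None of the 14 tested genes of the cytoplasmic relay and destruction complex had an unadjusted p under 0.05, and their median log2 fold change was 0.05.

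**Figure D4:**
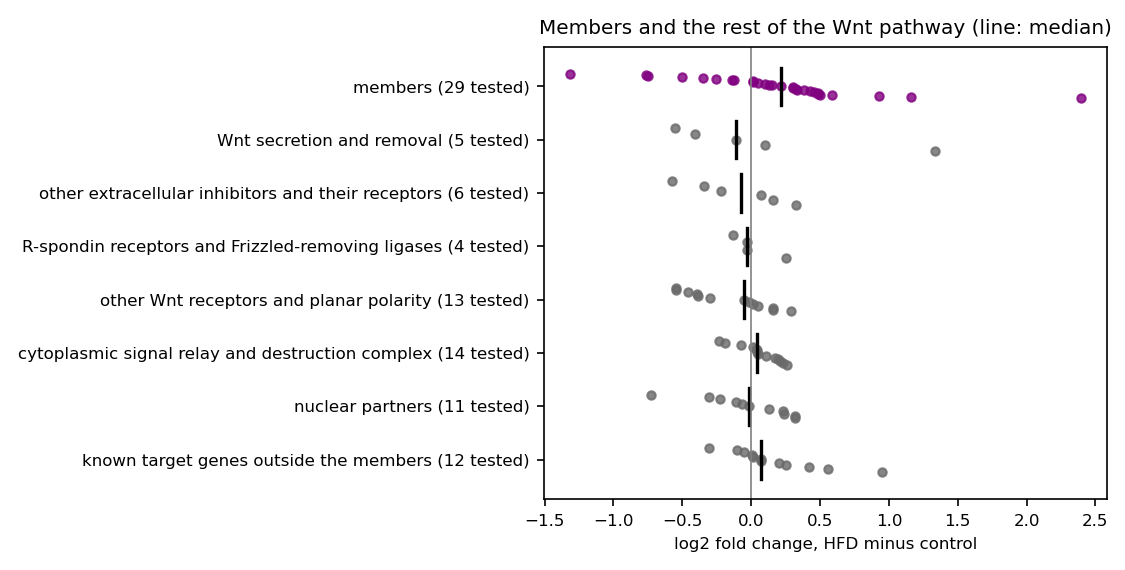
Log2 fold change (HFD minus control) of the 29 tested genes, labelled members, and of the tested genes in 7 groups of the remaining pathway, with 1 point per gene and a line at each median. The 29 genes reach from Sfrp5 at -1.32 to Wnt9b at 2.40, while the medians of the 7 groups lie between -0.11 and 0.07.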

How the data were processed

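RNA from the atria of 6 mice was sequenced by the authors from a directional library, aligned to GRCm38 with STAR, restricted to uniquely mapped reads, assigned to Ensembl genes with Salmon and compared with DESeq2. Whether strand was used in counting, and the tool versions, are not given in the sources used here. The deposited signal per gene and mouse is the authors' normalized count, the read count divided by 1 size factor per library. The authors also deposited log2 fold changes with standard errors, p-values and adjusted p-values, and 2 scores (the Wald statistic and a ranking metric), none of which was used.

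The members and gene lists were chosen with earlier results of these data known. Gene symbols in the table are in capitals and were matched without regard to case, giving 44 genes. GENCODE names of GRCm38 matched 97.8% of the 43432 identifiers, and exon lengths were taken from the same annotation. A row without a gene identifier held no reads and was left out. Dividing each value by that of 1 read gave whole reads (within 0.01 read) for 100% of values. For the 15275 genes whose mean was at least 10, log2(normalized count + 1) was fitted by diet over all 6 mice, without covariates, in R 4.3.3 and limma 3.58.1 (lmFit, then eBayes, trended variance), and genes passed at a Benjamini-Hochberg adjusted p under 0.05. The added 1 understates changes of low genes. Single genes were also given an exact permutation test. The alternatives included edgeR 4.0.16, which called 87 genes on the recovered reads against 114 by limma, and DESeq2 1.42.0. Tested on simulated counts for this comparison, limma recovered 95 of 100 genes changed by an absolute log2 fold change of 1 and 100 of 100 changed by 1.5 among 15275, with 5 false calls. Smaller changes, such as those of most members, and changes in low genes were not simulated. The simulation gave every gene the same assumed spread between mice, which was not estimated from these data. Its figures therefore need not hold for the real comparison. Values are given in full for members with an unadjusted p under 0.05 and for the most abundant member of each role, and pathway genes are named where the unadjusted p was under 0.05. Wnt4, Fzd9, Rspo3, Frzb, Notum and the genes with few reads were added after their values were seen.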

Additional observations from a re-analysis of the deposited data

How the results depend on the processing

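With 3 mice a group, calls depended on single mice and on the model of the variance. The count of genes called was 114 and became 0 without a variance trend (where 1717 genes had an unadjusted p under 0.05), 483 with DESeq2 and 69 with an absolute log2 fold change above 1. It ranged from 14 (without control mouse 2) to 318 (without HFD mouse 3) when 1 mouse was left out. Of the 44 genes, 2 were called, against 0 without a variance trend, 1 where every sample had to reach 10 (Wnt9b was then not tested), and 0 to 2 when 1 mouse was left out. At an unadjusted p under 0.05 there were 7 of the 29 tested members and 1864 of the 15275 tested genes in the main fit by limma. The same members and genes were tested with DESeq2, with the replicate block and when 1 mouse was left out. With DESeq2 there were 5 members and 1724 genes, and with the replicate block 5 and 1714. When 1 mouse was left out, the members ranged from 4 to 9 and all genes from 1245 to 2216. The replicate block gave 157 genes and the same 2 members, but same-numbered mice had deviations correlated at 0.116, -0.027 and -0.004, so the numbers were not taken as a pairing.

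The sign of some small effects changed. Fzd2 was -0.0075 after quantile normalization. Wif1, for which control mouse 1 is far above the rest, was -0.61 with both edgeR scalings and -0.63 with DESeq2. Leaving out 1 mouse gave log2 fold changes from -0.19 to 0.13 for Fzd2, -0.078 to 0.072 for Fzd8, -0.24 to 0.0052 for Rspo1, -0.19 to 0.25 for Wnt11, -0.14 to 1.1 for Wnt6, -0.63 to 1.2 for Wif1, -0.56 to 0.011 for Lef1 and -0.18 to 0.60 for Tcf7. Without a change of sign, the same fits gave 0.12 to 0.81 for Fzd4, 0.14 to 0.48 for Fzd7, -1.16 to -0.41 for Fzd3, 0.064 to 0.25 for Fzd5, 0.024 to 0.29 for Fzd6, 0.12 to 0.31 for Lrp5, -0.23 to -0.023 for Sfrp1, -1.14 to -0.083 for Sfrp4, 0.32 to 0.77 for Wnt2, 0.18 to 0.73 for Wnt2b, 0.047 to 0.47 for Wnt5b and -0.47 to -0.23 for Wnt5a. The causes were not tested. Wnt9b rests on 8 to 18 reads in each control library, which limits its precision.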
